A study of Mus musculus with 4 samples.

Results

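Collagen chains are the subunits from which the collagens of the extracellular matrix are built. They were taken as every row of the expression table whose gene symbol has the form Col, a type number, the letter a and a chain number, and 44 of the 19030 genes listed met this rule. They were grouped as 11 fibrillar chains, 6 chains of type IV, the collagen of basement membranes, 6 chains of type VI and 21 other chains. Polyadenylated RNA was sequenced from a depot under the skin, the inguinal white adipose tissue (ingWAT), of C57BL/6 mice labelled 3 months old and kept at 4°C. The Ctrl mice carried Oct3 (Slc22a3), a transporter of norepinephrine, flanked by loxP sites, and the cKO mice carried the same floxed alleles with a Cre transgene under the Adiponectin promoter, which is active in adipocytes. Every mouse was thus floxed and cold-exposed, and the deletion was directed at adipocytes and not at the other cells of the depot. The study's methods describe male mice that were moved to the cold in steps. There were 2 libraries of each genotype. The number of mice in a library is not stated, so that the p-values measure only the spread between libraries, which may be technical. Expression was given as FPKM, the fragments of a gene scaled by transcript length and library size, a unit per length that allows levels of different chains to be compared. Reads were estimated at 17400000 to 18250000 per library. Slc22a3 itself was at 17.0 and 17.7 FPKM in the Ctrl libraries and at 9.07 and 9.50 FPKM in the cKO libraries, a log2 fold change of -0.83 (adjusted p = 0.00044).

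Collagen chains fold as trimers whose prolines and lysines are hydroxylated in the endoplasmic reticulum, are secreted as procollagens, and are trimmed and cross-linked outside the cell. Fibrillar collagens, mainly types I and III with type V at the fibril core, give fat its connective tissue septa. Type IV collagen forms the sheet around each adipocyte and capillary, and type VI collagen forms beaded filaments next to it. In adipose tissue the fibrillar chains and type VI come largely from fibroblasts and progenitor cells, whereas the type IV chains are also made by adipocytes and endothelial cells.

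Col4a1 and Col4a2, which assemble into the same type IV trimer, lie head to head on chromosome 8 and overlap at their starts. The RefSeq start sites used are 21 bases apart on opposite strands. That of Col4a2 (11312805) is the first base of its gene. That of Col4a1 (11312826) lies inside its gene, which begins at 11312889 on the minus strand, so that the start sites are not placed alike. Each promoter window of 300 bases runs from 250 bases before to 50 bases after the start site (RefSeq, GRCm38.p6). The windows of this pair are shown because they share 78 bases (chr8:11312777-11312854), which are in capitals, so that the genes can be read against a common stretch of DNA. The Col4a1 window is chr8:11312777-11313076, minus strand, and the Col4a2 window is chr8:11312555-11312854, plus strand.
Col4a1: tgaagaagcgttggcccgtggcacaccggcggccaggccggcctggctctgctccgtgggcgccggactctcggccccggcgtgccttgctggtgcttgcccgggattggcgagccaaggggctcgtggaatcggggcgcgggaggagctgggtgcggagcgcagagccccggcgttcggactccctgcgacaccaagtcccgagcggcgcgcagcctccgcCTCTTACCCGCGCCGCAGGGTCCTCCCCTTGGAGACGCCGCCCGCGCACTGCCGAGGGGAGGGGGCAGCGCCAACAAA
Col4a2: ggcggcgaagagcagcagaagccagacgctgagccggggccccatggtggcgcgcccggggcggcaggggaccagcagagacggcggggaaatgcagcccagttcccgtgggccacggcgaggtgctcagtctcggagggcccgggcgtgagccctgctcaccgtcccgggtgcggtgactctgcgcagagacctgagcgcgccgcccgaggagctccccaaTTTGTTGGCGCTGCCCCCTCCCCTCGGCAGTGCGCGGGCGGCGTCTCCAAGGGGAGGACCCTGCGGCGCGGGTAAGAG

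The windows of Col1a2, an abundant chain that was lower in cKO, and of Col27a1, the chain tested whose cKO libraries lay above both Ctrl libraries, are shown as a contrast within the fibrillar class. The Col1a2 window is chr6:4505368-4505667, plus strand, and the Col27a1 window is chr4:63215162-63215461, plus strand. The Col1a2 start site (4505618) is the first base of its gene. That of Col27a1 (63215412) lies inside its gene, which begins at 63214009, so that the windows are not placed alike. Capitals mark matches, on either strand, to the CCAAT box (CCAAT), the GC box (GGGCGG) and the TATA box (TATAAA), and no match overlaps another.
Col1a2: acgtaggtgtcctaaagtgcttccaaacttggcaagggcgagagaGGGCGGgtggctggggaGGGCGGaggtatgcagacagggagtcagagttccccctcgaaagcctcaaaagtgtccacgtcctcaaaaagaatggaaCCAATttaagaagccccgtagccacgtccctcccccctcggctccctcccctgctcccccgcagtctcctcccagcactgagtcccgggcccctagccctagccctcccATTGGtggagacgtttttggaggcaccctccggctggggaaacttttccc
Col27a1: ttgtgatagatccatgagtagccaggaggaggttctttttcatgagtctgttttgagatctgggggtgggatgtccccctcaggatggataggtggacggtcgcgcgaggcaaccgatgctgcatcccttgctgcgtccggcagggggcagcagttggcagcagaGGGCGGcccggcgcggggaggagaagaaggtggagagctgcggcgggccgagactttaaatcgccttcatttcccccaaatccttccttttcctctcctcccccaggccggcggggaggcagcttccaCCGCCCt
The Col1a2 window held 2 CCAAT and 2 GGGCGG matches, and that of Col27a1 held 2 GGGCGG matches and no CCAAT. A window was found for 35 of the 44 chains. GGGCGG was present for 22 of them (62.9%), against 38.2% of all genes with a window. CCAAT was present for 13 (37.1%, against 41.1%), and TATAAA for 5 (14.3%, against 15.7%). Among the 13 chains with a window that were lower in cKO, 8 held GGGCGG and 5 held CCAAT. These are counts of letters in a window and not of bound sites.

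Collagen transcripts were lower in the ingWAT of cKO mice. FPKM summed over the 44 chains was 1308 and 1166 in the Ctrl libraries and 908 and 886 in the cKO libraries, so that cKO stood at 72.6% of Ctrl. Of the 20 chains with a mean FPKM of at least 1, which were tested with limma on log2(FPKM + 1), 15 fell in cKO, 0 rose and 5 did not pass an adjusted p of 0.05. The background among all 12658 genes tested was 13.8% lower and 12% higher, or 25.8% in either direction. At an unadjusted limma p under 0.05, Col27a1 was the chain higher in cKO. The 20 chains had a median log2 fold change of -0.48 (range -0.71 to 0.28), against -0.0060 over all genes tested. These directions are relative to the whole library and reverse for most chains when libraries are scaled to fibroblast markers, as given below. In bulk tissue, fewer cells of a type and less RNA per cell cannot be told apart.

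**Figure D1:**
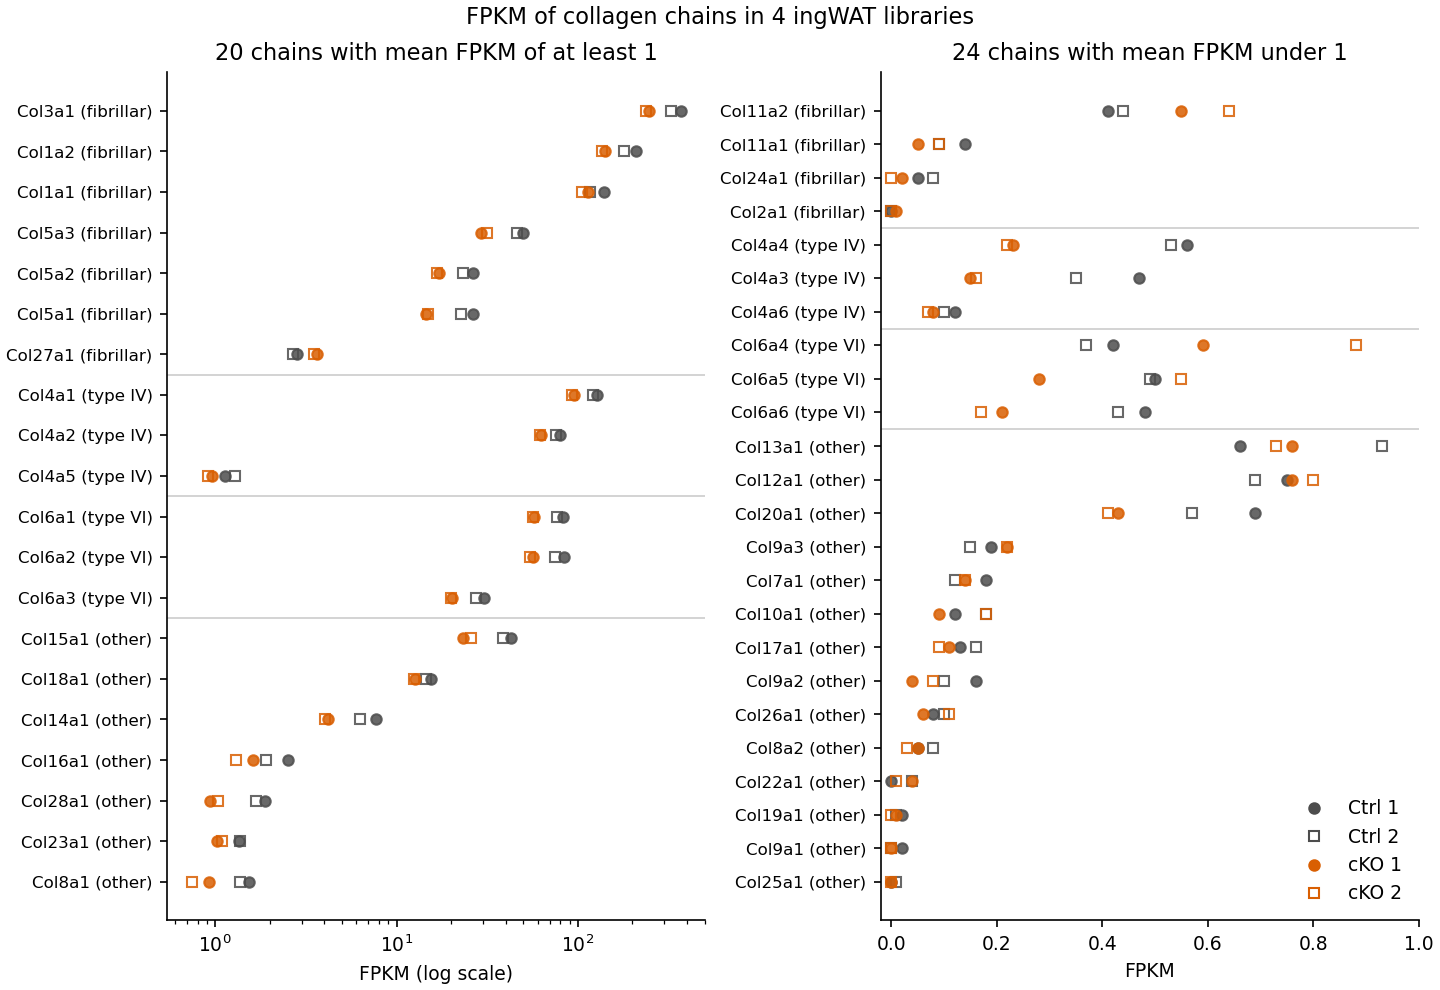
FPKM of all 44 collagen chains in each library, with the 20 tested chains on a log axis (left) and the other 24 on a linear axis (right). Circles and squares are replicates 1 and 2, grey for Ctrl and orange for cKO, and lines part the classes. The cKO libraries lie below both Ctrl libraries for 27 chains and above for 5.

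Over all 44 chains, each cKO library was below each Ctrl library for 27, above for 5, and the groups overlapped for 12. The 24 chains under a mean of 1 FPKM gave 8 of those below and 4 of those above. Among all genes tested, which leaves out genes under that mean, 34.6% lay below in this way and 31.9% above. The repertoire was uneven. Col3a1, Col1a2 and Col1a1 together made up 53.4% to 55.3% of collagen FPKM in each library, and the 13 chains above a mean of 10 FPKM made up 98.0% to 98.1%. At the other end, 11 chains had a mean under 0.1 FPKM, among them Col2a1, the chain of cartilage collagen, which was listed at 0.01 FPKM in cKO 1 and at 0 in the other libraries.

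The fibrillar class stood at 72.3% of Ctrl, with summed FPKM of 824 and 718 in Ctrl and of 567 and 548 in cKO. Of its 7 chains tested, 5 fell, and the median log2 fold change was -0.52. Col3a1, which forms the homotrimer of reticular fibers, was the most abundant chain of the series, at 370 and 328 FPKM in Ctrl and 247 and 239 in cKO. The groups did not overlap, and the log2 fold change was -0.52 ± 0.07 (SE, n = 2 and 2 libraries, adjusted p = 0.0033 by limma).

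Type I collagen, the main fibrillar collagen of connective tissue, is a heterotrimer of Col1a1 and Col1a2 chains. Col1a2 was at 209 and 179 FPKM in Ctrl and 141 and 136 in cKO, a log2 fold change of -0.47 (adjusted p = 0.0066). Its partner Col1a1 was at 140 and 116 FPKM in Ctrl and 113 and 106 in cKO. The nearest values of the Col1a1 groups were thus close, at 116 in Ctrl 2 and 113 in cKO 1. The Col1a1 difference did not pass the test (log2 fold change -0.22, 95% interval -0.43 to -0.0024, adjusted p = 0.13), and it was -0.087 without Ctrl 1 and -0.35 without Ctrl 2. Within each library, the ratio of Col1a1 to Col1a2 FPKM was 0.671 and 0.652 in Ctrl and 0.801 and 0.776 in cKO, which did not overlap. The ratio of Col3a1 to Col1a1 was 2.65 and 2.82 in Ctrl and 2.18 and 2.26 in cKO.

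Type V collagen sits in the core of fibrils and limits their diameter, and all of its chains fell. Col5a1, the chain found in most type V trimers, was at 26.4 and 22.6 FPKM in Ctrl and 14.6 and 14.9 in cKO (log2 fold change -0.69, adjusted p = 0.0016). Col5a3, a chain of narrower tissue range, was at 49.5 and 45.9 FPKM in Ctrl and 29.4 and 31.4 in cKO (log2 fold change -0.64, adjusted p = 0.0011). Col5a2, the usual partner of Col5a1, was at 26.5 and 23.3 FPKM in Ctrl and 17.1 and 16.6 in cKO (log2 fold change -0.54, adjusted p = 0.0029). In all type V chains the highest cKO value was below the lowest Ctrl value. Relative to Col1a1 in the same library, Col5a1 went from 0.188 and 0.194 to 0.129 and 0.141.

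Col3a1 and Col5a2 are neighbors on chromosome 1 (chr1:45311538-45349706 and chr1:45374331-45503282) on opposite strands, with 24625 bases between them. The ratio of their FPKM was 14.0 in each Ctrl library and 14.5 and 14.4 in cKO, so that their levels moved nearly in proportion although Col3a1 was the far more abundant of the pair.

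Col27a1, a fibril-forming chain known from cartilage, differed in direction from the other fibrillar chains tested. It was at 2.82 and 2.67 FPKM in Ctrl and 3.62 and 3.50 in cKO. The cKO libraries were higher without overlap, but the difference did not pass the adjusted threshold (log2 fold change 0.28, 95% interval 0.07 to 0.50, adjusted p = 0.058). It passed as higher under median-of-ratios scaling, quantile normalization and a fit without the variance trend. The remaining fibrillar chains were under a mean of 1 FPKM and were not tested. Col11a2 was at 0.41 and 0.44 FPKM in Ctrl and 0.55 and 0.64 in cKO, whereas Col11a1 and Col24a1 were at 0.14 or less in every library.

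**Figure D2:**
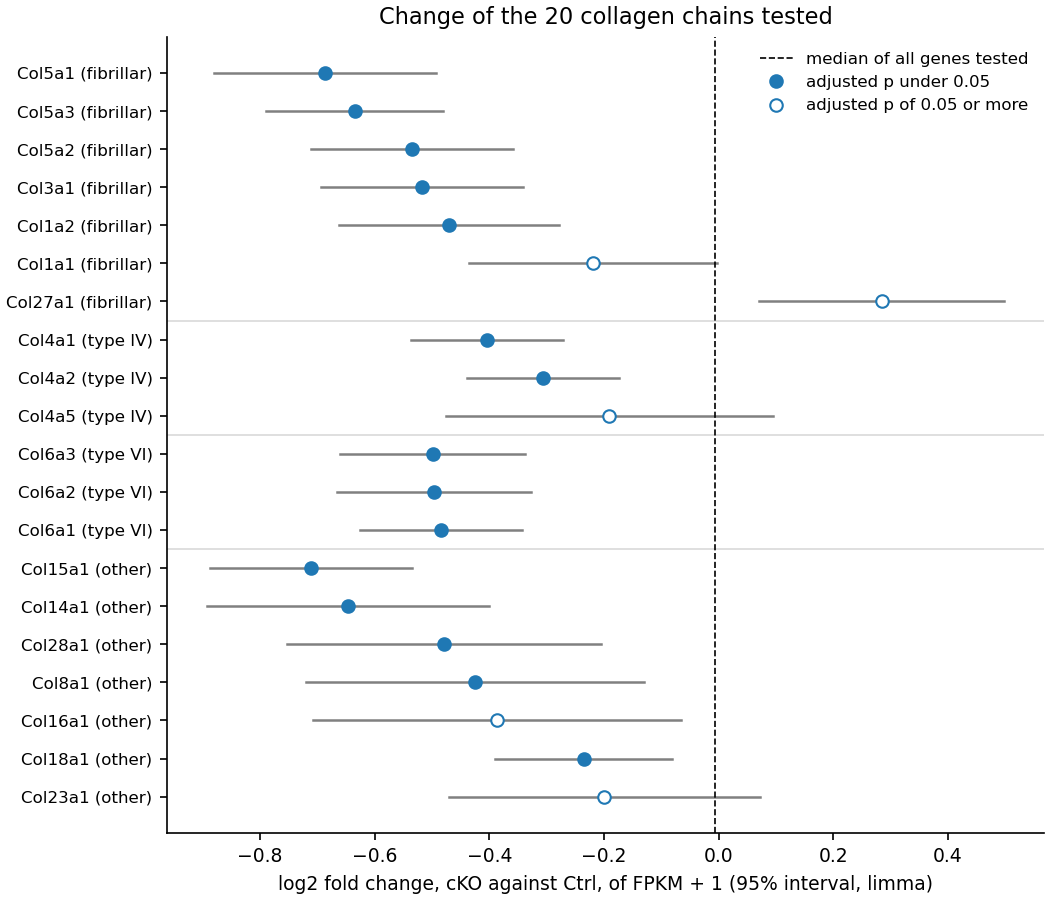
log2 fold change of FPKM + 1, cKO against Ctrl, for the 20 chains tested, with 95% intervals from limma and a dashed line at the median of all genes tested. Filled points passed an adjusted p of 0.05. All 15 of them are negative relative to the whole library, and the point of Col27a1 is at 0.28. Scaled to fibroblast markers, the median of these chains turns to 0.28 and that of all genes to 0.72.

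The type IV chains of the basement membrane stood at 77.2% of Ctrl. Col4a1 was at 127 and 122 FPKM in Ctrl and 94.6 and 93.1 in cKO (log2 fold change -0.40 ± 0.06, adjusted p = 0.0028). Col4a2 was at 79.3 and 75.4 FPKM in Ctrl and 62.8 and 61.8 in cKO (log2 fold change -0.31 ± 0.06, adjusted p = 0.0083). For both chains the spread between replicates was small beside the gap between genotypes. The ratio of Col4a1 to Col4a2, whose windows share the capital letters shown above, was 1.61 in each Ctrl library and 1.51 in each cKO library.

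Col4a5, a type IV chain of kidney, skin and muscle membranes, was at 1.13 and 1.29 FPKM in Ctrl and 0.96 and 0.91 in cKO, and did not pass the test (log2 fold change -0.19, adjusted p = 0.29). Its neighbor Col4a6, 1275 bases away on the X chromosome, was at 0.12 and 0.10 FPKM in Ctrl and 0.08 and 0.07 in cKO. Col4a3 and Col4a4, which form the type IV network of the glomerulus together with Col4a5 and overlap at their starts on chromosome 1, were low but clearly counted. Col4a3 was at 0.47 and 0.35 FPKM in Ctrl and 0.15 and 0.16 in cKO, or about 73 and 53 reads against 23 and 24. Col4a4 was at 0.56 and 0.53 FPKM in Ctrl and 0.23 and 0.22 in cKO, or about 103 and 96 reads against 41 and 39. The cKO means were 37.8% and 41.3% of Ctrl, lower shares than those of Col4a1 and Col4a2 (75.4% and 80.6%). Col4a3 and Col4a4 were below the expression filter. Without the filter, Col4a4 was called lower at a pseudocount of 1 and at 0.1, and Col4a3 was called at neither. The genotypes were separated, with cKO lower, in all 6 type IV chains.

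Type VI collagen stood at 70.8% of Ctrl, and its major chains, which assemble with each other before secretion, fell by nearly equal amounts. Col6a1 was at 82.6 and 76.7 FPKM in Ctrl and 57.0 and 56.3 in cKO (log2 fold change -0.48 ± 0.06, adjusted p = 0.0019). Col6a2, its neighbor on chromosome 10, was at 84.1 and 74.3 FPKM in Ctrl and 56.8 and 54.7 in cKO (log2 fold change -0.50 ± 0.07, adjusted p = 0.0033). Col6a3, the chain whose C-terminal fragment is endotrophin, went from a mean of 28.8 to 20.1 FPKM (log2 fold change -0.50, adjusted p = 0.0027). None of these groups overlapped. The ratio of Col6a1 to Col6a2 was 0.983 and 1.03 in Ctrl and 1.01 and 1.03 in cKO, and these overlapped. The ratio of Col6a3 to Col6a1 was 0.367 and 0.356 in Ctrl and 0.355 and 0.354 in cKO.

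Col6a4, Col6a5 and Col6a6, a cluster on chromosome 9 of chains related to Col6a3, were under a mean of 1 FPKM, and their directions differed. Col6a6 was at 0.48 and 0.43 FPKM in Ctrl and 0.21 and 0.17 in cKO, which is 41.8% of Ctrl. Col6a4 was at 0.42 and 0.37 FPKM in Ctrl and 0.59 and 0.88 in cKO, with 49 to 56 estimated reads in Ctrl and 77 to 112 in cKO. Col6a5 overlapped between genotypes. Without the filter, Col6a6 was called lower at a pseudocount of 1 and was not called at 0.1, and Col6a4 was called at neither.

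**Figure D3:**
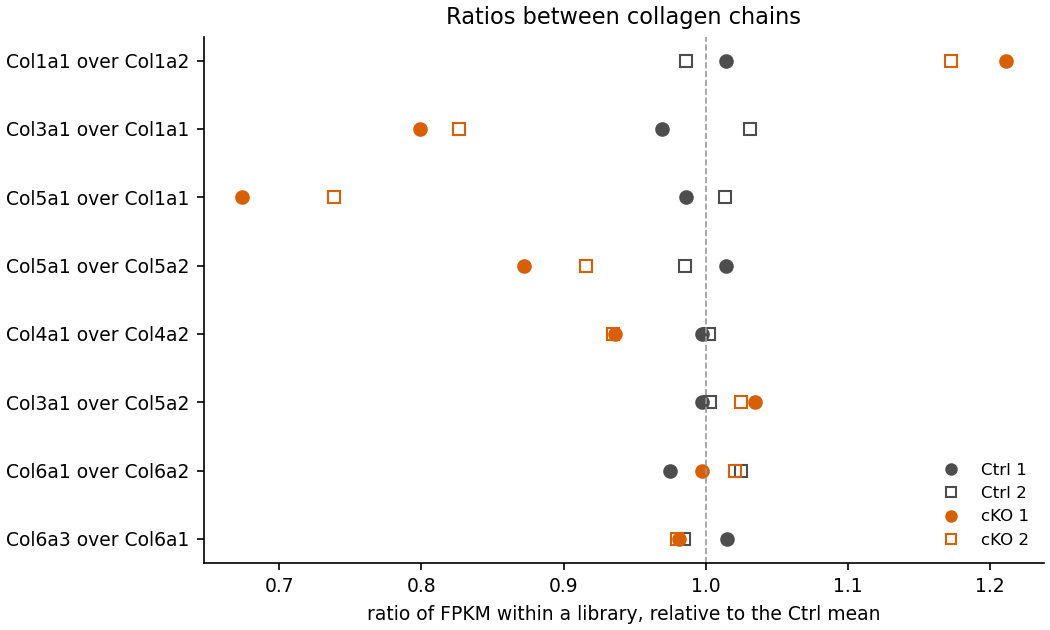
Ratios of FPKM between pairs of collagen chains within a library, divided by the Ctrl mean of the same ratio (dashed line at 1). Circles and squares are replicates 1 and 2, grey for Ctrl and orange for cKO. Col1a1 over Col1a2 is higher in both cKO libraries, Col5a1 over Col1a1 lower, and the type VI ratios lie near 1. A ratio within a library does not depend on scaling.

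The other chains stood at 66.4% of Ctrl, with 5 of 7 tested lower. Col15a1 and Col18a1 are multiplexins, which sit at the junction of basement membrane and stroma. Col15a1 was at 42.5 and 38.8 FPKM in Ctrl and 23.2 and 25.7 in cKO (log2 fold change -0.71 ± 0.07, adjusted p = 0.0011). Col18a1, the precursor of endostatin, was at 15.5 and 14.5 FPKM in Ctrl and 12.6 and 12.5 in cKO (log2 fold change -0.24, adjusted p = 0.037). The intervals of these multiplexins, -0.89 to -0.53 and -0.39 to -0.08, did not overlap, but the difference between them was not tested.

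Col14a1 and Col16a1 are FACIT collagens, which decorate the surface of fibrils. Col14a1 was at 7.74 and 6.28 FPKM in Ctrl and 4.18 and 4.01 in cKO (log2 fold change -0.65 ± 0.10, adjusted p = 0.0050). Col16a1 went from a mean of 2.22 to 1.46 FPKM without passing the test (log2 fold change -0.39, adjusted p = 0.078). Col28a1, known from peripheral nerve, fell from 1.78 to 0.99 FPKM (log2 fold change -0.48, adjusted p = 0.023), and Col8a1, a network chain of vessel walls, from 1.46 to 0.83 FPKM (log2 fold change -0.42, adjusted p = 0.046). The transmembrane chain Col23a1 went from 1.36 to 1.06 FPKM, which did not pass the test (log2 fold change -0.20, adjusted p = 0.25). The calls of Col8a1 and Col18a1 were lost when any one library was left out, and that of Col28a1 without Ctrl 1, Ctrl 2 or cKO 1.

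Of the 14 other chains that were too low to test, the cKO libraries lay below Ctrl for Col20a1, Col17a1 and Col9a2, and above it for Col12a1 and Col9a3. Col20a1 was at 0.69 and 0.57 FPKM in Ctrl and 0.43 and 0.41 in cKO. The groups overlapped for Col13a1, Col7a1, Col10a1, Col26a1, Col8a2, Col22a1, Col19a1, Col9a1 and Col25a1, of which Col13a1 alone exceeded 0.2 FPKM.

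The class shares of collagen FPKM differed little in size between genotypes. Those of type IV, type VI and the other chains nevertheless did not overlap, with type IV higher in cKO. Fibrillar chains took 63.0% and 61.6% of collagen FPKM in Ctrl and 62.4% and 61.9% in cKO. Type IV took 16.0% and 17.1% in Ctrl and 17.5% and 17.6% in cKO, and type VI took 15.2% and 15.4% against 14.9% and 15.0%. The share of the other chains was 5.82% and 5.92% in Ctrl and 5.20% and 5.55% in cKO. Of all FPKM in a library, collagen chains took 0.267% and 0.241% in Ctrl and 0.183% and 0.178% in cKO. For sums, shares and ratios, 30 quantities in all, the two-sided exact permutation test over 2 against 2 libraries cannot go below p = 0.333, and no quantity can therefore pass.

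Markers of some cell types were lower in cKO, like the collagen chains, and markers of others were higher. The 12 fibroblast markers summed to 2062 FPKM in Ctrl 1, 1785 in Ctrl 2 and 1081 to 1124 in cKO, or 57.3% of Ctrl. Of the 12, 10 fell, Dpt, Dcn and Pi16 among them. Ly6a overlapped between genotypes and did not pass. Thy1 went the other way, at 61.4 and 56.8 FPKM in Ctrl and 65.7 and 76.0 in cKO, without passing (log2 fold change 0.26, adjusted p = 0.059 by limma). The ratio of collagen FPKM to fibroblast marker FPKM was 0.634 and 0.653 in Ctrl and 0.840 and 0.788 in cKO. Relative to these markers, collagen was thus higher in cKO, and all classes shared this direction. With each library scaled to the fibroblast markers, 0 of the 20 chains were called lower and 10 were called higher, beside 1.36% and 89.6% of all genes under that scaling. Their median was then 0.28 and that of all genes 0.72, a shift that a common factor per library sets for all genes alike. Some of the markers, such as Dcn and Lum, are themselves matrix proteins that bind collagen.

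**Figure D4:**
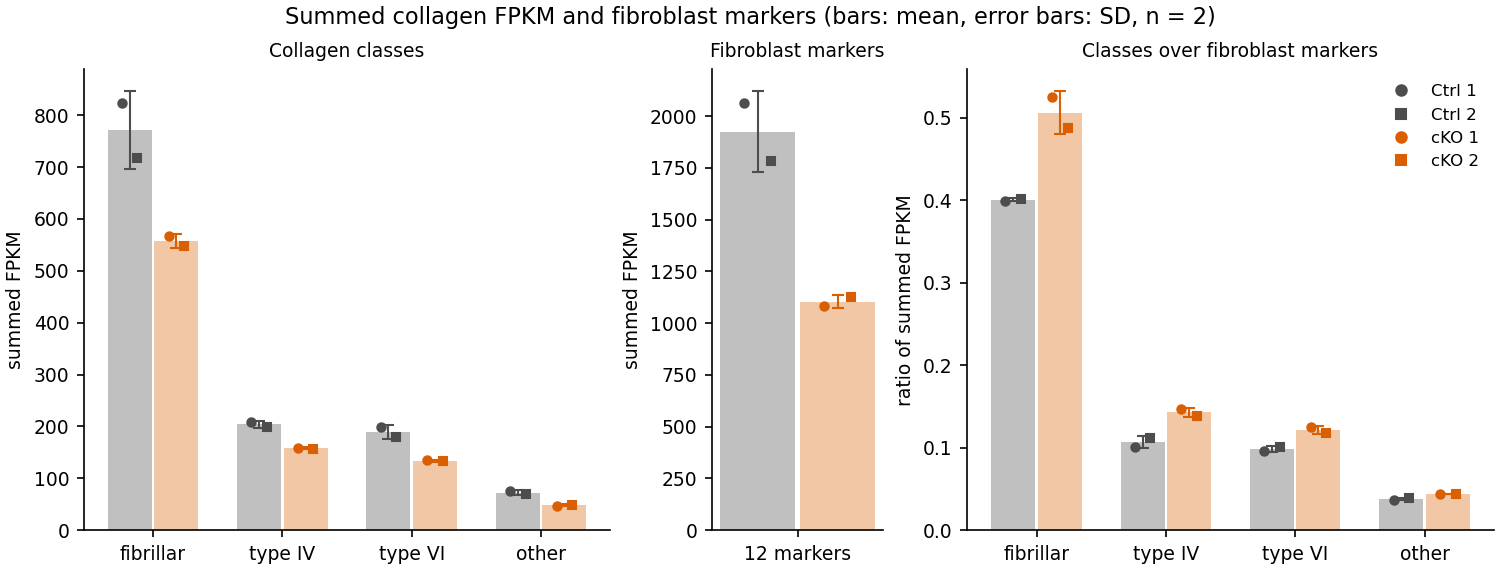
Summed FPKM of the collagen classes (left) and of the 12 fibroblast markers (middle), and the ratio of each class to these markers (right), as mean (bars) ± SD (n = 2) with circles and squares for replicates 1 and 2. The sums are lower in cKO relative to the whole library, and the ratios to the fibroblast markers are higher.

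The Ctrl libraries also held skeletal muscle transcripts, with 10 markers summing to 2293 FPKM in Ctrl 1 and 1527 in Ctrl 2, against 7.07 to 8.83 in cKO. The 7 Schwann cell markers summed to 154 to 167 FPKM in Ctrl and 74.4 to 80.2 in cKO, with 5 lower and 1 higher. The 8 endothelial markers summed to 274 to 279 in Ctrl and 233 to 247 in cKO, with 4 lower, and the 8 smooth muscle and pericyte markers to 145 to 146 and 123 to 126, with 4 lower and 1 higher. The 8 adipocyte markers summed to 31330 to 32803 in Ctrl and 24544 to 24861 in cKO, with 5 lower. All 7 brown or beige adipocyte markers rose (1516 to 1792 against 4038 to 4778), as did all 6 B cell and 4 of 5 T cell markers. Cartilage and bone markers summed to 1.07 to 1.49 FPKM in every library. No marker listed was at 0 in all libraries. The part of these cells in the collagen differences was not tested.

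Genes that modify, fold, carry and trim collagen, or bind it at the cell surface, were described as a list. Of 60 such genes in the table, 50 were tested, of which 29 fell and 1 rose, beside the background of 13.8% and 12% of all genes. Their median log2 fold change was -0.30, and with libraries scaled to the fibroblast markers 1 was lower and 35 were higher, beside 1.36% and 89.6% of all genes. Among prolyl and lysyl hydroxylation genes, 5 of 12 fell and 1 rose. P4ha1, a catalytic subunit of prolyl 4-hydroxylase, was at 12.1 and 11.6 FPKM in Ctrl and 15.6 and 14.8 in cKO (log2 fold change 0.33 ± 0.07, adjusted p = 0.011). P4hb, the other subunit of the same enzyme, fell from a mean of 111 to 94.2 FPKM (log2 fold change -0.24, adjusted p = 0.025). P4ha2, another catalytic subunit, had means of 7.9 FPKM in Ctrl and 7.1 in cKO and did not pass (log2 fold change -0.13, adjusted p = 0.26). P3h1 and P3h3, of the prolyl 3-hydroxylase family, fell by 0.41 and 0.40 on the log2 scale (adjusted p = 0.016 and 0.012). The calls of P4hb and P3h1 were lost without any one of the 4 libraries, that of P4ha1 without Ctrl 1, Ctrl 2 or cKO 1, and that of P3h3 without Ctrl 1, Ctrl 2 or cKO 2.

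Of 9 chaperone genes, 6 fell. Serpinh1 (Hsp47), the collagen-specific chaperone of the endoplasmic reticulum, was at 262 and 239 FPKM in Ctrl and 194 and 188 in cKO (log2 fold change -0.39 ± 0.07, adjusted p = 0.0066), which is 76.2% of Ctrl and near the 72.6% of the collagen sum. The prolyl isomerases Fkbp14 and Fkbp9 fell by 0.63 and 0.58 (adjusted p = 0.0017 and 0.0011). Of 9 secretion genes, 4 fell, led by Creb3l1, a transcription factor of secretory cells that targets Col1a1 in bone, from a mean of 17.9 to 9.86 FPKM (log2 fold change -0.79, adjusted p = 0.0014). Sar1a, a GTPase of the transport vesicles, was lower by less (log2 fold change -0.26, adjusted p = 0.026). The Serpinh1 call was lost without Ctrl 1, and that of Sar1a without Ctrl 1, cKO 1 or cKO 2.

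Of the 5 propeptide processing genes tested, 4 fell and the median was -0.71. Pcolce2, an enhancer of C-propeptide cleavage, was at 41.6 and 35.1 FPKM in Ctrl and 19.5 and 17.6 in cKO (log2 fold change -1.0 ± 0.09, adjusted p = 0.00072). Bmp1, the protease that makes this cut, was at 20.3 and 16.9 FPKM in Ctrl and 10.3 and 10.5 in cKO (log2 fold change -0.78 ± 0.09, adjusted p = 0.0015). Both were lower without overlap, to 48.4% and 55.9% of Ctrl.

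Of 5 cross-linking genes, 3 fell, all of the lysyl oxidase family. Lox was at 19.8 and 20.6 FPKM in Ctrl and 16.0 and 15.9 in cKO (log2 fold change -0.32, adjusted p = 0.0089), and Loxl1 and Loxl2 fell by 0.46 and 0.45 (adjusted p = 0.022 and 0.016). The Lox call was lost without Ctrl 1 or Ctrl 2, that of Loxl1 without Ctrl 1 or cKO 2, and that of Loxl2 without Ctrl 1, cKO 1 or cKO 2. Of 9 receptor genes, 7 fell. Itga11, the integrin subunit of the fibrillar collagen receptor on fibroblasts, went from 3.36 and 2.59 FPKM in Ctrl to 1.11 and 1.09 in cKO (log2 fold change -0.91 ± 0.13, adjusted p = 0.0028). Ddr2, a receptor tyrosine kinase for fibrillar collagen, went from 16.7 and 14.9 to 8.39 and 8.82 FPKM (log2 fold change -0.80 ± 0.08, adjusted p = 0.00081). The single gene of hydroxylysine glycosylation tested, Colgalt1, was at 31.0 and 29.1 FPKM on average (log2 fold change -0.09, adjusted p = 0.35).

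**Figure D5:**
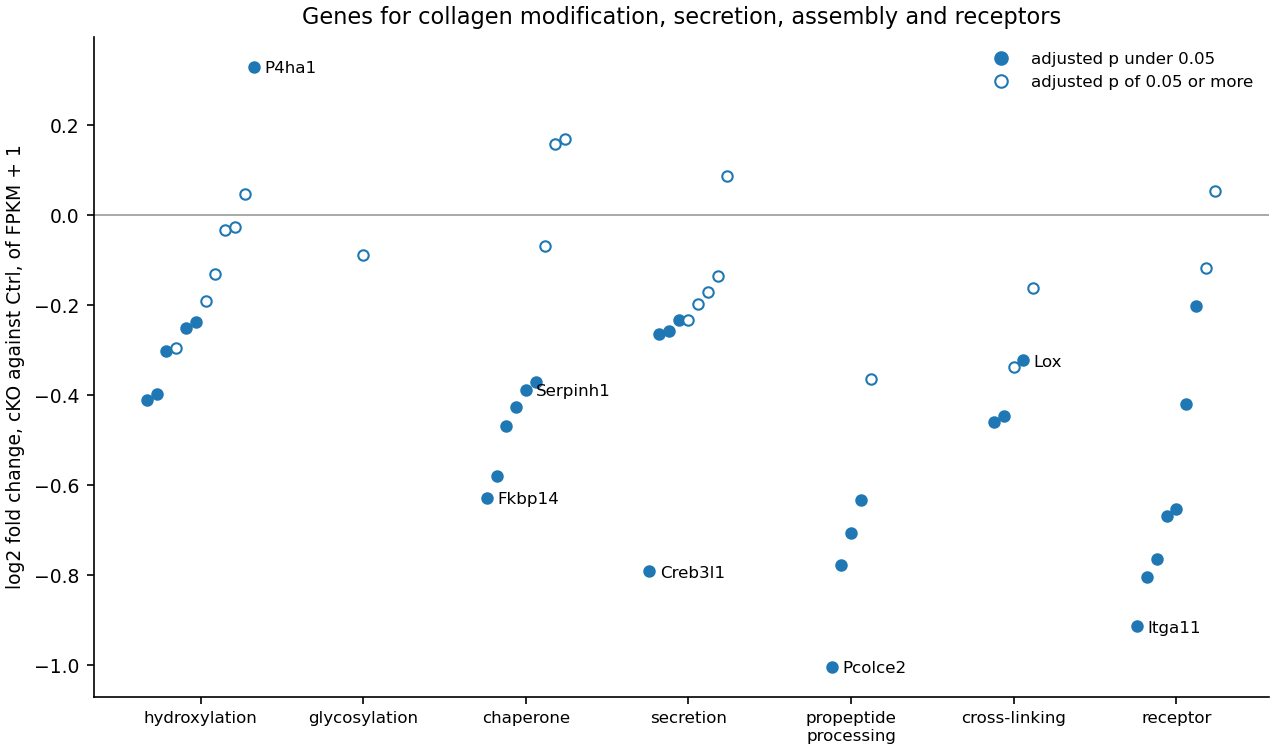
log2 fold change of FPKM + 1, cKO against Ctrl, for the 50 genes of collagen modification, secretion, assembly and receptors that were tested, by role. Filled points passed an adjusted p of 0.05. P4ha1 is the filled point above 0, and 29 are below, relative to the whole library. Scaled to fibroblast markers, 1 of these genes is lower and 35 are higher, beside 1.36% and 89.6% of all genes.

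Of the libraries, Ctrl 1 changed the number of chains called most when left out. Without it, 7 of the 20 chains were lower, and Col3a1, Col1a2, Col4a1, Col4a2, Col18a1, Col14a1, Col28a1 and Col8a1 no longer passed, whereas Col5a1, Col5a2, Col5a3, Col6a1, Col6a2, Col6a3 and Col15a1 did. The median was then -0.39, and the number of all genes called fell from 3269 to 787. Without any other single library, 12 or 13 chains were lower.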

How the data were processed

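RNA was purified with oligo-dT beads, and single-end reads were made on a BGISEQ-500. The authors deposited FPKM per gene and library, to the hundredth, and no read counts. The submitters' processing notes name HISAT2 2.0.4, RSEM 1.2.12 and the mm10 build. Scaling between libraries and strand are not given in the sources used here. No per-sample column was left unused.

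The 12658 of 19030 genes whose FPKM averaged 1 or more were kept. The cKO and Ctrl values of log2(FPKM + 1) were fitted in limma 3.58.1 (R 4.3.3, lmFit, then eBayes with a variance trend, two-sided), with Benjamini-Hochberg adjustment over all genes tested. A pseudocount of 1 understates changes of low genes. An adjusted p under 0.05 was a call. On simulated data of 12658 genes with 200 changed, 198 were recovered with 9 false calls, and 64 of 66 at a log2 change of 0.5. The simulated noise was independent between genes, followed the fitted variance trend and held no difference in tissue makeup between libraries. These numbers therefore check the fit under its own assumptions and do not give its error rate on the real libraries. Sums and ratios used exact permutation tests (scipy 1.17.1). Reads per library were estimated from FPKM steps of 307 short genes (85.1% to 91% of values whole within 0.1 reads), with an error of at most 2.5% in 3 simulations. The search covered a limited range of depths. The simulated depths lay within that range, so they could not reveal a true depth outside it. RefSeq tables (GRCm38.p6, whose chromosomes are those of mm10) gave positions, promoters and the lengths of the short genes. The transcript lengths of the chains, the strands of neighboring genes and the exons were taken from GENCODE. At most 2.5% of the exon bases of a tested chain overlapped another gene (Col5a1).

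The members, gene lists and markers were chosen with earlier results of these data known. Named with values were chains with a mean FPKM of at least 1, those of neighboring pairs, and the 2 largest rises and falls called in each biosynthesis role plus Serpinh1, P4ha1, P4hb and Lox. Exceptions were Col9a1, Col19a1 and Col6a5, low chains of neighboring pairs that were named without values. Low chains given with values, and Colgalt1, P4ha2 and Thy1, were chosen after their values were seen. Of 68 listed biosynthesis symbols, older synonyms included, 60 were in the table. Of the markers, Krt14, Bglap, Ibsp and Trac, and of the chains Col21a1, had no row. Keratinocyte markers summed to 4.53 to 4.64 FPKM in Ctrl and 2.68 to 2.75 in cKO, and epithelial markers to under 1 FPKM in every library. Macrophage markers summed to 107% of Ctrl, with 3 of 6 lower and 1 higher.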

Additional observations from a re-analysis of the deposited data

How the results depend on the processing

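Through 13 alternatives other than scaling to fibroblast markers, 37 named genes were followed, with Colgalt1, P4ha2 and the markers not among them. None that was fitted changed direction (30 were fitted at a mean FPKM of at least 5). With all 4 libraries kept, 11 to 16 chains were called lower in these alternatives, with 14 to 44 chains tested. The share of all genes called lower was 4.8% to 16.1%, so that the counts have different backgrounds. The count of all genes called was 1762 without the filter and 1449 without it at a pseudocount of 0.1, an alternative added after the data were seen. The median of the chains, then taken over all 44, was -0.19 and -0.34. There were 17 and 15 biosynthesis genes lower, beside 5.75% and 4.8% of all genes. Both fits test more genes of low FPKM. Both lost the calls of Col1a2, Col14a1, Col18a1 and Col8a1, and the fit at a pseudocount of 0.1 also lost that of Col28a1. With the filter kept, the Col8a1 call was lost at a pseudocount of 0.1, under median-of-ratios scaling and under quantile normalization. That of Col18a1 was lost without the trend. Median-of-ratios scaling, quantile normalization and no trend each called 1 chain higher (Col27a1), beside 13%, 13.5% and 10% of all genes. Leaving out 1 library in turn gave 787 to 2340 genes called, 7 to 13 chains lower with a median of -0.53 to -0.39, 10 to 20 biosynthesis genes lower and 0 to 1 higher. The lone library of a group is then assumed to vary like the other group.

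Scaled to the fibroblast markers, 11511 genes were called, with 0 chains lower and 10 higher, 1 biosynthesis gene lower and 35 higher. The median of the chains was 0.28 and the log2 ratio of summed collagen FPKM 0.37. The log2 fold changes that turned positive were 0.31 for Col3a1, 0.36 for Col1a2, 0.61 for Col1a1, 0.42 for Col4a1, 0.52 for Col4a2, 0.34 for Col6a1, 0.32 for Col6a2, 0.30 for Col6a3, 0.18 for Col5a3, 0.26 for Col5a2, 0.10 for Col5a1, 0.10 for Col15a1, 0.54 for Col18a1, 0.055 for Col14a1, 0.15 for Col16a1, 0.25 for Col23a1, 0.24 for Col4a5 and 0.012 for Col8a1. Among the other genes they were 0.44 for Serpinh1, 0.59 for P4hb, 0.47 for Lox, 0.30 for P3h1, 0.33 for P3h3, 0.077 for Fkbp14, 0.24 for Fkbp9, 0.56 for Sar1a, 0.00033 for Bmp1, 0.35 for Loxl1 and 0.32 for Loxl2. This scaling divides each library by its marker level, so a gene that fell less than the markers turns positive.

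With the replicate number as a block, 16 chains were lower, beside 14.1% of all genes, and Col16a1 was added. Same-numbered libraries did not deviate together (correlation 0.015 across 12658 genes), so the numbers were not taken as pairs. The 24 chains under a mean of 1 FPKM were left untested by the filter, and their estimated reads ranged from 0 to 160 per library.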
